A study of Mus musculus with 2 samples.

Results

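The Nkx2 and Sox lineage regulators examined here are 9 genes at 7 loci: Nkx2-1 with Nkx2-9, Nkx2-2 with Nkx2-4, Nkx2-5, Sox1, Sox21, Sox9 and Sox17. Their members are the called enrichment peaks that overlapped 1 of 7 fixed intervals of mm9 by at least 1 bp. There were 102 of these among 100871 peaks in all, 56 of 45579 in shDnmt3L and 46 of 55292 in shGFP. The intervals were chr12:57560001-57720000 for Nkx2-1 and Nkx2-9, chr2:146850001-147060000 for Nkx2-2 and Nkx2-4, chr17:26910001-27030000 for Nkx2-5, chr8:12330001-12460000 for Sox1, chr14:118580001-118690000 for Sox21, chr11:112590001-112710000 for Sox9 and chr1:4430001-4540000 for Sox17.

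Both libraries came from E14 cells, a mouse embryonic stem cell line. The shDnmt3L cells carried a short hairpin RNA against Dnmt3L, a protein without catalytic activity that binds the enzymes of de novo DNA methylation. The shGFP cells carried a hairpin against GFP, a jellyfish protein with no mouse counterpart, and were the control. Each group held 1 library, so values below stand without replicate error or p-value, and each difference is a difference between these libraries. Whether a culture was 1 clone or a pool, and how far Dnmt3L was reduced, is not given in the sources used here. The sample names speak of MeDIP, which captures 5-methylcytosine, whereas the labels' protocols describe glucosylation-based capture by the Hydroxymethyl Collector kit, made to enrich 5-hydroxymethylcytosine. The captured modification is therefore not named below.

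Nkx2 proteins carry a homeodomain and Sox proteins an HMG box, and both families direct cells towards particular lineages. In pluripotent cells most such genes are silent or nearly so, and their CpG-rich promoters are typically held by Polycomb proteins and lack dense DNA methylation. 5-hydroxymethylcytosine is made from 5-methylcytosine by Tet enzymes, which are abundant in embryonic stem cells.

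CpG dinucleotides are the substrate of both modifications, and the promoters of these genes differed widely in how many they hold. RefSeq promoter sequences of build GRCm38.p6, with 250 bases before and 50 after the start of the gene, were at hand for 7 of the 9 genes. The 4 below belong to loci with a peak of 10 kb or more and span the range of CpG number among these genes. They are written 5′ to 3′ on the strand of the gene, with each CpG (the letters CG, which read the same on both strands) in capitals.
Nkx2-4: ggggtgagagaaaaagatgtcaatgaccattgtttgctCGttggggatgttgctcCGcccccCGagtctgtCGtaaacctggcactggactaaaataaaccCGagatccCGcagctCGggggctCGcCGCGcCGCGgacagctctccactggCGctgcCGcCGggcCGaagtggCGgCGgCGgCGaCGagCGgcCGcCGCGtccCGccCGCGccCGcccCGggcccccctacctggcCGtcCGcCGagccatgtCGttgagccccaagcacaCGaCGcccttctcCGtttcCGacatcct
Sox1: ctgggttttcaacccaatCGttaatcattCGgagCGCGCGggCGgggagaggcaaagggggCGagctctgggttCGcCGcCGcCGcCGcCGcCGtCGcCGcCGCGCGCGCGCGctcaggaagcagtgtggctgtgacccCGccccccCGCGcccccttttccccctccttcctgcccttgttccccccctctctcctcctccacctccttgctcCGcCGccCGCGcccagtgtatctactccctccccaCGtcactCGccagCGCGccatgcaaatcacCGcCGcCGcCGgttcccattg
Nkx2-1: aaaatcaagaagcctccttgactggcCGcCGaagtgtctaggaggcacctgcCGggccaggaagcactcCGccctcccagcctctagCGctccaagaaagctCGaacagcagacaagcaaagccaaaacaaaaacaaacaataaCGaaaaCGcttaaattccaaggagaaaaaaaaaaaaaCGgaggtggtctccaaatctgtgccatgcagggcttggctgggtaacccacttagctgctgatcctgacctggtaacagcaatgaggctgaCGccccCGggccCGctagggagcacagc
Nkx2-5: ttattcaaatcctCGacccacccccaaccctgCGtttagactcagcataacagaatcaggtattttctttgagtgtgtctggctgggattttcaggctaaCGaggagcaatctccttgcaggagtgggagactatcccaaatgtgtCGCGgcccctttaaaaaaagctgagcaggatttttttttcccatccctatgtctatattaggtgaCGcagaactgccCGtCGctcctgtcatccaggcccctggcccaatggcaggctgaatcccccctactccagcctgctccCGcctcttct
The Nkx2-4 promoter held 38 CpG and the Sox1 promoter 37, numbers that 4.95% and 5.58% of the 32851 promoters in the table reached. The Sox21 promoter held 22, that of Nkx2-2 17, that of Nkx2-9 15 and that of Nkx2-1 12. The Nkx2-5 promoter held 9 CpG, and 45.8% of all promoters held as many or more. The median over the table was 7 CpG. The 4 promoters shown, all of loci with a wide shDnmt3L peak, differed more than 4-fold in CpG number. Whether promoter CpG number and peak width are linked was not tested. No annotation of mm9 was used, so where these promoters lie relative to the peaks was not determined.

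The shDnmt3L library had more than 2 times the called length of the control library over these loci. Peaks covered 221 kb in shDnmt3L and 102 kb in shGFP of the 960 kb examined, or 23.0% and 10.7%, a ratio of 2.16. Over the whole lists, 124425 kb were covered in shDnmt3L and 118236 kb in shGFP, a ratio of 1.05. Of the length at the 7 loci, 86.2 kb lay under peaks of both lists, 135 kb under shDnmt3L peaks alone and 16.3 kb under shGFP peaks alone. Most of what was called in the control library was thus called again: 84.1% of the bases under shGFP peaks lay under a shDnmt3L peak, against 77.3% over the whole lists. The converse share was lower, with 39.0% of the bases under shDnmt3L peaks also under a shGFP peak, against 73.4% over the whole lists.

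**Figure D1:**
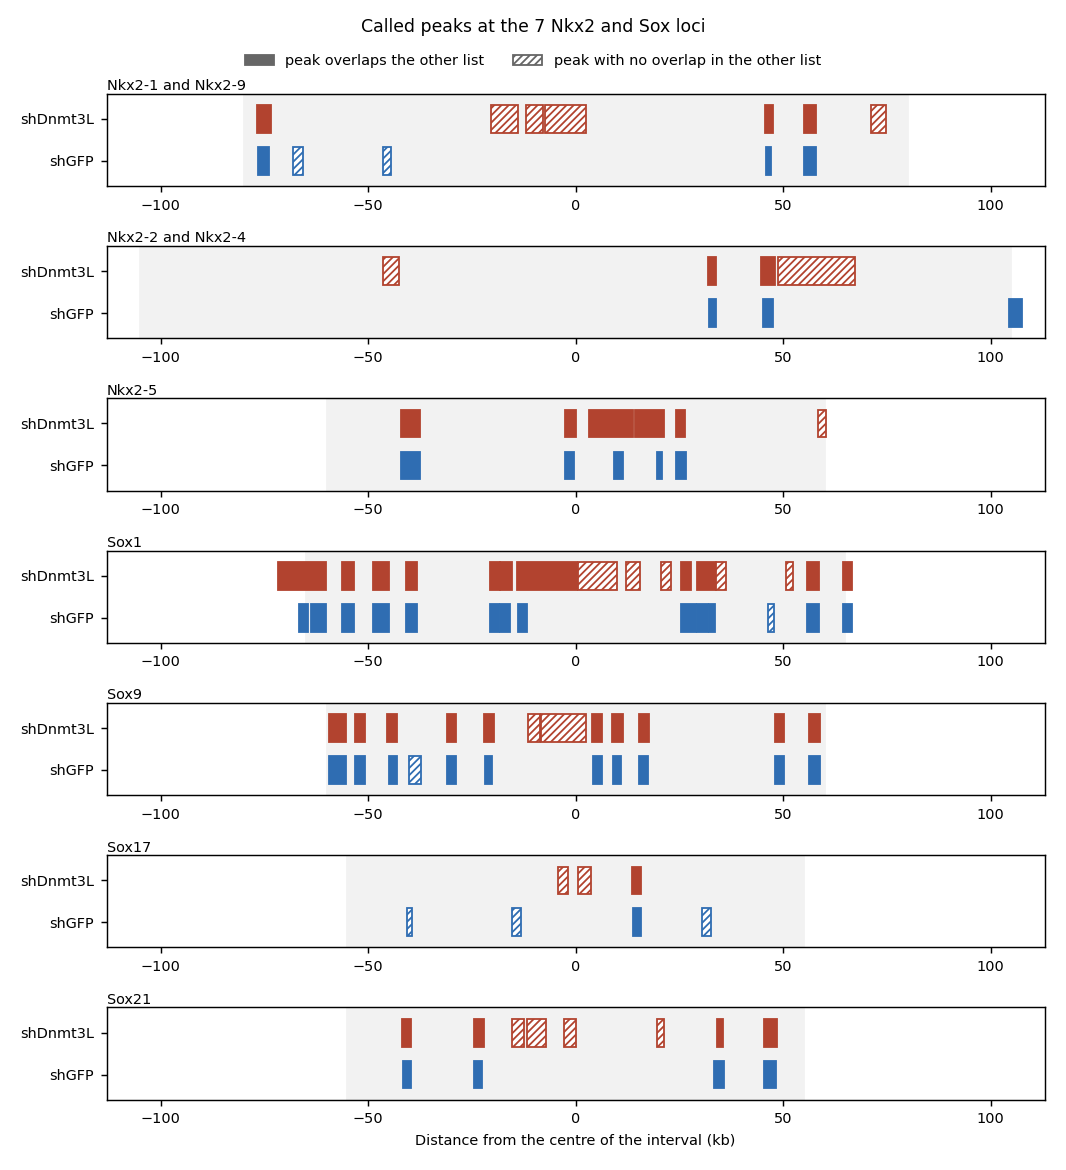
Called peaks of shDnmt3L (upper row, red) and shGFP (lower row, blue) at each locus, against the distance from the centre of the interval in kb. Grey shading marks the interval, filled boxes are peaks that overlap the other list and hatched boxes are peaks that do not. The widest boxes are in the shDnmt3L rows, and at the 6 loci other than Nkx2-2 with Nkx2-4 the middle of the widest lies within 10 kb of the centre.

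Covered length was at least 2-fold higher in shDnmt3L, with at least 5 kb covered, at 4 of the 7 loci. At no locus was it 2-fold lower. Among 13830 genome tiles of 120 kb that held a peak, 4.15% were past the same fold in the higher direction. Among the 7953 of these with at least 5 kb covered in either list, 7.22% were past it higher and 5.22% lower in shDnmt3L. The loci differ in length from the tiles, and the genes were chosen with earlier results of these data known, so the comparison describes the loci and is not a test. Sox1, at 1.99-fold, lay just below the threshold. Sox9 was at 1.51-fold and Sox17 at 1.03-fold.

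**Figure D2:**
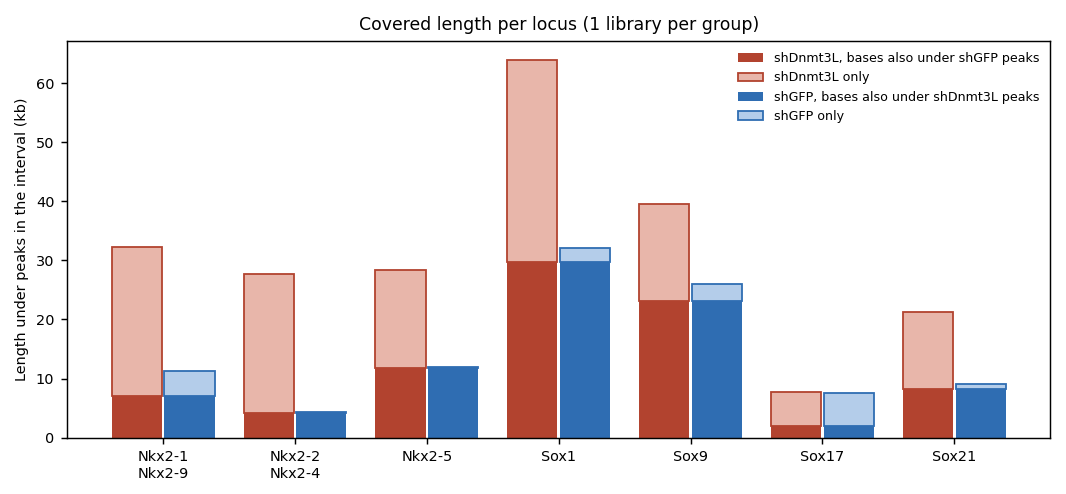
Length under peaks in each interval in kb, shDnmt3L in the left bar and shGFP in the right bar of each pair. The darker part of each bar is the length under peaks of both lists and the lighter part the length under 1 list alone. The lighter part is longer in shDnmt3L than in shGFP at each locus, by little at Sox17 (5.83 kb and 5.64 kb).

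Nkx2-1, which specifies thyroid, lung and ventral forebrain, and Nkx2-9, a regulator of the ventral neural tube, are adjacent protein-coding genes in the RefSeq gene table. Their interval held 32.2 kb of peaks in shDnmt3L and 11.3 kb in shGFP, a ratio of 2.85. There were 7 peaks in shDnmt3L and 5 in shGFP, and 3 of each list overlapped the other. The gain in covered length came from 4 shDnmt3L peaks with no shGFP peak. A run of 3 of these lay next to each other, at chr12:57619637-57626108 (6472 bp), chr12:57628107-57632123 (4017 bp) and chr12:57632509-57642599 (10091 bp). The nearest shGFP peak lay 24064 bp from the first, 32534 bp from the second and 36936 bp from the last. The control library thus had no called peak anywhere in this run, nor anywhere in the central part of the interval defined below. The 10091 bp peak had a score of 499, higher than 96.5% of its list, where the score is the value that the authors' peak caller gave to a peak and ranks peaks within 1 list only. The top-scoring shGFP peak of the interval, at chr12:57563442-57566259, scored 134, higher than 66.9% of the shGFP list. The widest shGFP peak of the interval, at chr12:57694963-57697882, was 2920 bp wide and lay wholly under a shDnmt3L peak of 2984 bp. The 3 shared pairs differed by 64, 362 and 614 bp in width, each wider in shDnmt3L. In the other direction, 2 shGFP peaks of 2299 and 1923 bp had no shDnmt3L partner, with scores of 69.1 and 52.9, higher than 27.9% and 5.66% of their list.

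Nkx2-2, which patterns ventral neural progenitors and pancreatic endocrine cells, and its neighbour Nkx2-4, a close relative of Nkx2-1, had the largest ratio of the 7 loci. Peaks covered 27.7 kb in shDnmt3L and 4.31 kb in shGFP, a ratio of 6.43. A single shDnmt3L peak of 18692 bp at chr2:147003677-147022368 made up 79.4% of the length under shDnmt3L peaks alone. It was wider than 99.9% and scored higher than 99.6% of its list, with a score of 1297. No shGFP peak overlapped it, but the nearest lay only 1061 bp away, at chr2:147000188-147002615. That shGFP peak was 2428 bp wide and scored 289.5, the top score of the interval in shGFP, and it lay wholly under a shDnmt3L peak of 3483 bp. With peaks within 500 bp merged, this shDnmt3L peak and the 18692 bp peak became 1 stretch of 22667 bp. The 18692 bp peak thus lay beside a peak called in both libraries, and was joined to it only by merging. The widest shGFP peak, 3014 bp at chr2:147059878-147062891, lay mostly outside the interval.

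Nkx2-5, a regulator of the heart field, had 28.4 kb under peaks in shDnmt3L and 11.9 kb in shGFP, a ratio of 2.38. Here the difference was one of width rather than of position. All 5 shGFP peaks overlapped a shDnmt3L peak, each a different one, and 99.0% of the bases under shGFP peaks lay under shDnmt3L peaks. At chr17:26973257-26983737 the shDnmt3L peak was 10481 bp wide, and the shGFP peak inside it was 2013 bp wide. At chr17:26984330-26991248 the widths were 6919 bp in shDnmt3L and 1012 bp in shGFP. Within their own list, these shDnmt3L peaks scored higher than 99.6% and 96.2% of peaks. The shGFP peaks inside them scored higher than 12.8% and 25.3% of the shGFP list. Scores of the lists share no scale, as read depth is unknown, so scores given side by side measure no change in enrichment. The other 3 pairs of the locus differed by 17 to 516 bp in width. Of these, the shGFP peak at chr17:26927879-26932488 was the widest and top-scoring of its list at the locus, with 4610 bp and a score of 310.4, beside 4642 bp and a score of 209 in shDnmt3L.

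Sox1, an early marker of neural ectoderm, lies on chromosome 8, the chromosome densest in peaks in both lists, with 37.9 peaks per Mb in shDnmt3L and 42.8 in shGFP. Peaks covered 64.0 kb in shDnmt3L and 32.1 kb in shGFP of the 130 kb interval, or 49.2% and 24.7%. This was the largest difference in kb of the 7 loci, 31.9 kb. The ratio passed 2-fold with lists of equal length (log2 ratio 1.17) and with intervals narrowed by 20 kb at each end (1.5). It stayed below 2-fold with intervals widened by 20 kb at each end (0.753) and with peaks within 500 bp merged (0.975). A minimum score of 100 in each list gave 0.939, also below 2-fold. So did shDnmt3L peaks narrowed by the ratio of the median widths of the lists, with 0.74. On chromosome 8, 3.44% of tiles were at least 2-fold higher in shDnmt3L. The shDnmt3L list had 16 peaks and the shGFP list 14. The shDnmt3L peak at chr8:12380917-12395382 was 14466 bp wide and scored 1775, higher than 99.9% of its list. Of its length, 15.6% lay under a single shGFP peak of 2262 bp, whose start was 155 bp inside and whose end was 12049 bp inside the shDnmt3L peak. It was followed after a short gap by a 9279 bp peak at chr8:12395612-12404890, with a score of 826, whose nearest shGFP peak was 12278 bp away. Merged within 500 bp, these became a stretch of 23974 bp in shDnmt3L. A further shDnmt3L peak of 11602 bp at chr8:12323334-12334935 crossed the edge of the interval and lay mostly outside it. This peak was of another kind, since 3 shGFP peaks covered 91.0% of it. The widest shGFP peak within the locus, at chr8:12346185-12349953, was 3769 bp and had a shDnmt3L partner of 3864 bp. The top-scoring shGFP peak, at chr8:12376903-12379112 with a score of 449, had a shDnmt3L partner with a score of 433. Apart from the 14466 bp peak, the single pairs of this locus differed by −830 to 658 bp in width, shDnmt3L minus shGFP.

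Sox21, a neural relative of Sox1 that counteracts the Sox1 subgroup in chick neural progenitors, had 21.2 kb under peaks in shDnmt3L and 9.15 kb in shGFP, a ratio of 2.32. The ratio fell below 2-fold with intervals widened by 20 kb at each end (log2 ratio 0.78) and with shDnmt3L peaks narrowed by the ratio of the median widths of the lists (0.96). No peak reached 5 kb, and the difference came from the number of peaks. The shDnmt3L list had 8 peaks, and 4 of these had no shGFP peak. The shGFP list had 4 peaks, each with a shDnmt3L partner. A run of 3 unshared shDnmt3L peaks lay near the centre, at chr14:118619641-118622598 (2958 bp), chr14:118623315-118627972 (4658 bp) and chr14:118632283-118635015 (2733 bp). Their scores were higher than 51.0%, 77.8% and 40.4% of the list, so none was among its strongest. The top-scoring peak of the locus was the same in both lists, 3080 bp and a score of 300.4 in shDnmt3L at chr14:118680351-118683430, and 2946 bp and a score of 356 in shGFP at chr14:118680383-118683328.

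Sox9, which directs cartilage formation and testis development, had 39.5 kb under peaks in shDnmt3L and 26.1 kb in shGFP, a ratio of 1.51. A row of 10 pairs was called in both libraries, with widths that differed by at most 692 bp. Beside these the shDnmt3L list had a 10719 bp peak at chr11:112641764-112652482, which made up 65.5% of the length under shDnmt3L peaks alone. It scored 516, higher than 96.7% of the list, and its nearest shGFP peak was 1706 bp away. A 2880 bp shDnmt3L peak at chr11:112638570-112641449 adjoined it, also with no shGFP peak, and together they formed 13913 bp when merged within 500 bp. The top-scoring shGFP peak, at chr11:112706127-112708783 with a score of 508, had a shDnmt3L partner with a score of 467, and the widest, 4030 bp at chr11:112590577-112594606, had a partner of 4007 bp. Of the bases under shDnmt3L peaks at this locus, 58.6% also lay under shGFP peaks, more than at any of the other 6 loci. A minimum score of 100 in each list, which removed part of these peaks, gave a log2 ratio of 1.08, against 0.60 for all peaks. With shDnmt3L peaks narrowed by the ratio of the median widths of the lists, the log2 ratio at Sox9 was 0.349.

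Sox17, an endoderm determinant, was the exception. Its interval held 7.76 kb of peaks in shDnmt3L and 7.57 kb in shGFP, and the log2 ratio was 0.036. With shDnmt3L peaks narrowed by the ratio of the median widths of the lists it was −0.21, so no direction can be given. The lists had 3 and 4 peaks in shDnmt3L and shGFP, of which 1 pair overlapped. In shDnmt3L, the peaks without a partner were 2381 and 3143 bp wide, at chr1:4480795-4483175 and chr1:4485623-4488765. In shGFP, 3 peaks of 1335, 2231 and 2075 bp had none. The top score was 129 in shDnmt3L, higher than 63.6% of its list, and 105 in shGFP, higher than 54.8% of its list. No peak of this locus thus stood high in its list by score.

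**Figure D3:**
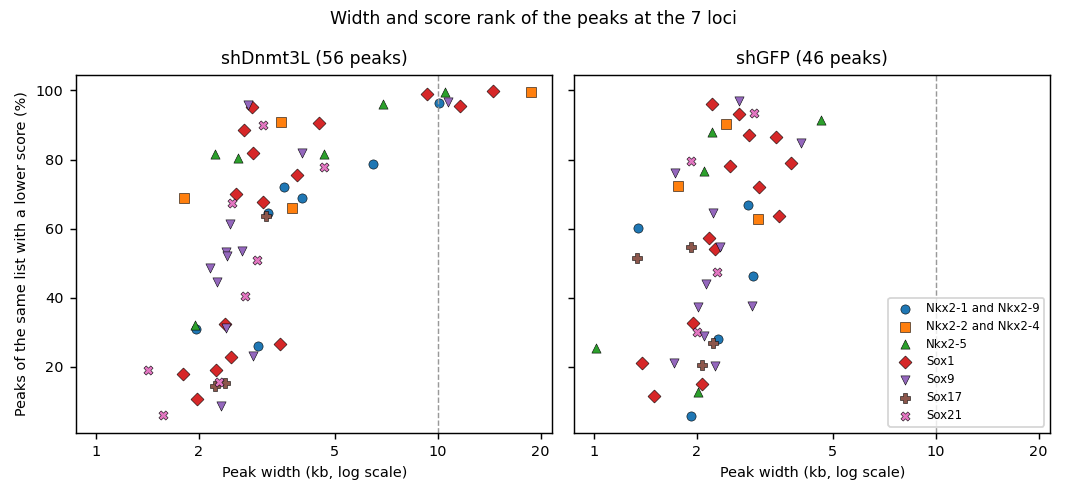
Width of each peak at the 7 loci in kb (log scale) against the percent of peaks of its own list with a lower score, for shDnmt3L (left) and shGFP (right). Each point is a peak, the symbols are the loci and the dashed line marks 10 kb. The 6 peaks to the right of the line are all in shDnmt3L and score higher than 95.6% to 99.9% of that list. Score ranks of the other shDnmt3L peaks of 10 kb or more are not given here. High ranks can therefore not be called particular to these loci.

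Wide peaks were frequent at these loci in the shDnmt3L list. The class of 10 kb and wider, known from earlier results, took in 6 of 56 peaks (10.7%, Wilson 95% interval 5.00 to 21.5%) in shDnmt3L and 0 of 46 peaks (upper bound 7.71%) in shGFP. Over the whole lists this class made up 0.535% of shDnmt3L peaks and 0.0524% of shGFP peaks. The 0 of 46 in shGFP is near that list's share and is no trait of these loci. The 6 peaks lay at 5 loci, Nkx2-1 with Nkx2-9, Nkx2-2 with Nkx2-4, Nkx2-5, Sox1 (2 peaks) and Sox9. The 11602 bp peak at Sox1 was mostly outside the interval. Among genome tiles 1.68% were touched by a shDnmt3L peak of this class and 0.239% by such a shGFP peak. On chromosome 8 alone 6.41% of tiles were touched by one in shDnmt3L. When each shDnmt3L peak was narrowed to 0.841 of its width, the ratio of the median widths of the lists, 2 of the 6 still reached 10 kb, those of 18692 bp and 14466 bp. At 5 kb and wider there were 9 peaks (16.1%) in shDnmt3L and 0 in shGFP, against 5.18% and 1.34% of the whole lists. Here too the 0 in shGFP is near its list share. The widest peak of each locus was wider in shDnmt3L at all 7 loci, by 6.20-fold at Nkx2-2 with Nkx2-4, 3.84-fold at Sox1, 3.46-fold at Nkx2-1 with Nkx2-9, 2.66-fold at Sox9, 2.27-fold at Nkx2-5, 1.58-fold at Sox21 and 1.41-fold at Sox17. Among tiles with a peak in both lists, the widest was wider in shDnmt3L in 80.8%, so the 7 of 7 is near the background. A ratio of 2 or more was found at 5 of the 7 loci and in 8.15% of these tiles. Peak width can move with read depth, fragment length and the control used in peak calling, which are unknown here, and their part in these widths was not tested.

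The peaks with no partner in the other list were unevenly divided between the libraries. In shDnmt3L, 20 of 56 peaks (35.7%, Wilson 95% interval 24.5 to 48.8%) had no shGFP peak, against 12.6% of the whole list. In shGFP, 7 of 46 peaks (15.2%, 7.57 to 28.2%) had no shDnmt3L peak, against 25.5% of the whole list. The order of the libraries at these loci was the opposite of that over the whole lists. That contrast depends on the length of the lists: with the shGFP list cut by score to the length of the shDnmt3L list, the shares were 39.3% in shDnmt3L and 14.3% in shGFP at the loci, and 17.8% in shDnmt3L and 15.7% in shGFP over the whole lists. Without Sox1 the shares were 37.5% of 40 peaks in shDnmt3L and 18.8% of 32 in shGFP. The Wilson intervals reflect counting error alone, and neighbouring peaks are not independent of each other. Median width was 3298 bp for the unshared shDnmt3L peaks and 2640 bp for the shared ones. The order was the same over the whole shDnmt3L list, with 2474 bp and 2366 bp. At the loci, 5 unshared shDnmt3L peaks were 5 kb or wider, a class that made up 1.23% of the whole list. Of the 6 peaks of 10 kb or more, 3 had no shGFP peak, those at Nkx2-1 with Nkx2-9, Nkx2-2 with Nkx2-4 and Sox9, a share near the 42.6% of all 244 such shDnmt3L peaks. Only 2 shDnmt3L peaks, both at Sox1, lay over 2 or more shGFP peaks, a share of the 56 close to the 3.27% of the whole list.

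Where a peak was called in both libraries as a single pair, most pairs were alike in width. At the 7 loci there were 34 such pairs, and 31 of these (91.2%) were wider in shDnmt3L, against 81.7% of 37952 pairs over the whole lists. At the loci the pairs differed by 150 bp in the median, with quartiles of 49.3 and 606 bp, and over the whole lists by 145 bp, with quartiles of 32 and 402 bp. The pairs that lay far outside this range were 3: 12204 bp at Sox1, and 8468 and 5907 bp at Nkx2-5. Of the length under shDnmt3L peaks alone, 73.0% lay in unshared peaks, 19.7% in these 3 pairs and 7.26% in all other shared peaks. In 23 of the 34 pairs (67.6%) the shDnmt3L peak stood lower within its own list than the shGFP peak within its list. Over the whole lists this held for 81.8% of pairs. Since the lists differ in length, these ranks cannot show whether enrichment changed.

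**Figure D4:**
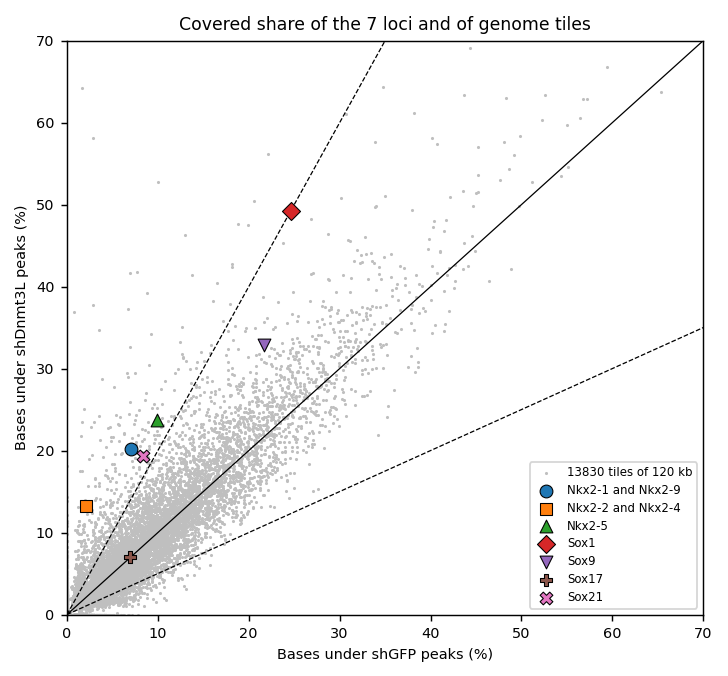
Percent of bases under shDnmt3L peaks (vertical axis) against percent under shGFP peaks (horizontal axis), for 13830 genome tiles of 120 kb (grey) and the 7 loci (symbols). The solid line marks equal cover and the dashed lines a 2-fold difference either way; 7 tiles lie beyond the axes, which end at 70%. Sox17 lies on the solid line, and the other 6 loci lie above it.

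Set against all genome tiles with a peak, 6 of the 7 loci were near the upper end of the difference in covered share. The difference, shDnmt3L minus shGFP, was 24.5 percentage points at Sox1, larger than in 99.8% of tiles. It was 13.7 points at Nkx2-5, 13.1 at Nkx2-1 with Nkx2-9, 11.2 at Nkx2-2 with Nkx2-4, 11.2 at Sox9 and 11.0 at Sox21, each larger than in 98.3% of tiles or more. At Sox17 it was 0.174 points, larger than in 58.2% of tiles. The median tile had 4.37% of its bases under shDnmt3L peaks and 4.49% under shGFP peaks. Under shGFP peaks lay 24.7% of the Sox1 interval and 21.7% of the Sox9 interval, and tiles were not matched for cover. The genes were chosen with earlier results of these data known, and the intervals differ in length from the tiles. These ranks therefore describe the loci and are not a test.

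Away from the intervals the libraries were closer to each other. In the 200 kb on either side of each interval, peaks covered 341 kb in shDnmt3L and 295 kb in shGFP over all 7 loci, a ratio of 1.15, against 2.16 within the intervals. The flank ratio was 0.770 at Nkx2-5, 0.967 at Sox21, 1.12 at Sox1, 1.16 at Sox17 and 1.34 at Sox9. It was higher beside Nkx2-1 with Nkx2-9, at 1.91, and beside Nkx2-2 with Nkx2-4, at 3.38, where peaks covered 27.2 kb in shDnmt3L and 8.03 kb in shGFP. Of the 116 shDnmt3L peaks in the flanks, 15.5% had no shGFP peak, near the 12.6% of the whole list. Each interval was divided into 3 parts of equal length, a choice made after the positions of the wide peaks had been seen. In the central parts, peaks covered 114 kb in shDnmt3L and 23.2 kb in shGFP, a ratio of 4.91, and in the outer parts 107 kb in shDnmt3L and 79.2 kb in shGFP, a ratio of 1.35. In the central part of the Nkx2-1 with Nkx2-9 interval and of the Sox21 interval no shGFP peak was called, and shDnmt3L peaks covered 38.6% and 28.2%. At Sox1, shDnmt3L peaks covered 77.5% and shGFP peaks 15.1% of the central part. Nkx2-2 with Nkx2-4 departed from this pattern, since its 18692 bp peak lay 58.0 kb from the centre, in an outer part. Its outer parts held 25.9 kb of peaks in shDnmt3L and 2.55 kb in shGFP, and these enter the outer ratio of 1.35. At Sox17 the central part held 7.76 kb of peaks in shDnmt3L and 4.16 kb in shGFP. The outer parts of Sox17 held 0 kb in shDnmt3L and 3.41 kb in shGFP.

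**Figure D5:**
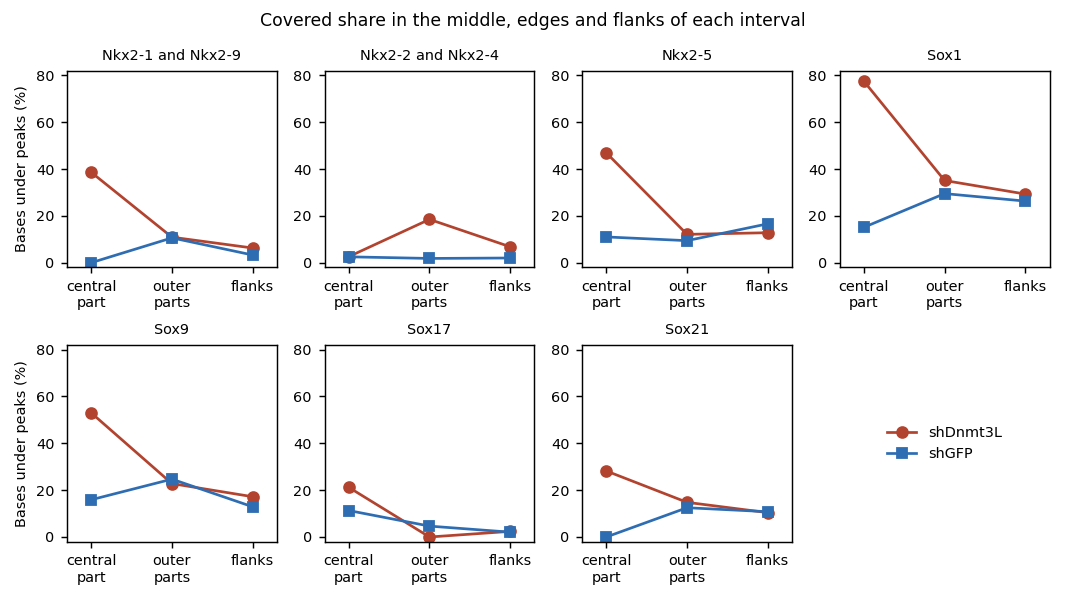
Percent of bases under shDnmt3L peaks (red circles) and shGFP peaks (blue squares) in the central part, the outer parts and the flanks of 200 kb on either side of each interval, 1 panel per locus. The red and blue values are far apart in the central part at Nkx2-1 with Nkx2-9, Nkx2-5, Sox1, Sox9 and Sox21, and in the flanks they differ by less than 1 point at Sox17 and Sox21.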

How the data were processed

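The authors deposited 1 peak list per library, with start and end of each peak in bp and a score given by their peak caller. The lowest deposited score, 50.01 in shGFP and 50 in shDnmt3L, would follow from a threshold of 1e-05 on p, if the score is −log10 of p times 10; this rests on the values alone. Per the submitters' processing notes, the tools were MACS 1.4.1, Bowtie 0.12.7 and CASAVA 1.8 and the build was mm9, with no roles stated. The sources used here give neither read depth nor input control nor duplicate handling, so the precision of a single peak is unknown.

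Peaks were assigned to intervals, compared by overlap of at least 1 bp and ranked within their list with pandas 2.3.3, numpy 2.4.6 and scipy 1.17.1 in Python 3.11.15. Covered length was cut at the interval's ends, and widths are of whole peaks. The genome was split into tiles of 120 kb. Shares carry Wilson 95% intervals. The code was tested on simulated data. The members, intervals, lists and width classes were chosen with earlier results of these data known. Named peaks were, per locus and list, the widest and the top-scoring, every shDnmt3L peak of 10 kb or more and every unshared one of 5 kb or more; others were named after their values were seen. Gene neighbours come from a GRCm38.p6 table in which all 9 genes matched, and no coordinates were converted. Alternatives were lists of equal length, a minimum score of 100, merging within 500 bp, narrowed shDnmt3L peaks, shifted interval ends, other overlap and membership rules, and tiles of 100 and 200 kb.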

Additional observations from a re-analysis of the deposited data

How the results depend on the processing

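Of 82 alternative values, 74 kept their sign and stayed within the range set for them, which was the Wilson interval for shares and a factor of 1.5 for counts and ratios. The log2 ratio of summed covered length (shDnmt3L over shGFP), 1.11 for all peaks, was 1.47 at a minimum score of 100 in each list, 0.86 with narrowed shDnmt3L peaks, 0.93 with intervals widened by 20 kb at each end and 1.54 with intervals narrowed by 20 kb, and between 0.98 and 1.25 with each locus left out in turn. Loci past 2-fold numbered 3 to 5 against 4: Sox21 was lost with widened intervals (log2 ratio 0.78) and narrowed peaks (0.96), Sox1 was gained with lists of equal length (1.17) and narrowed intervals (1.5), and Sox9 at the minimum score (1.08). The share of shGFP peaks without a shDnmt3L peak was 28.3% when an overlap of 50% of both peaks was asked for, against 15.2%. Narrowing the shDnmt3L peaks left 2 peaks of 10 kb or more in place of 6, by its construction. Per locus, 4 of 42 log2 ratios moved by more than this factor: 2.71 at Nkx2-1 with Nkx2-9 and 0.71 at Sox17 at the higher score, 2.04 at Nkx2-2 with Nkx2-4 with widened intervals, and 2.12 at Sox21 with narrowed intervals. Within it, Sox17 changed sign with narrowed peaks, at −0.21. With tiles of 200 kb, 3.62% of tiles were past the fold. No paired analysis was possible because there is 1 library per group. The unknown read depth limits which weak peaks could be called.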

Other observations

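In the flanks of 200 kb, 1 shDnmt3L peak reached 10 kb and no shGFP peak did. It measured 12424 bp at chr12:57788601-57801024, 68.6 kb beyond the interval of Nkx2-1 and Nkx2-9, scored 691, higher than 98.3% of its list, and had its nearest shGFP peak 15570 bp away. A 9681 bp shDnmt3L peak at chr2:147184998-147194678, 125 kb beyond the interval of Nkx2-2 and Nkx2-4, scored 773, higher than 98.7% of its list, and its nearest shGFP peak was 63012 bp away. In the RefSeq gene table of GRCm38.p6, the protein-coding gene that follows Nkx2-9 is Pax9 and the one that follows Nkx2-2 is Pax1, both paired-box regulators of the axial skeleton. Where these genes lie relative to the peaks was not determined. These peaks were named after their values were seen.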
